A study of Mus musculus with 13 samples.

Results

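A set of 8 genes of the oligodendrocyte lineage was followed through 13 RNA sequencing libraries of the ventral tegmental area (VTA) of mice. The genes, Olig1, Olig2, Sox10, Nkx2-2, Pdgfra, Cspg4, C1ql1 and Gpr17, were chosen by name, with earlier results of these data known. The VTA is a part of the midbrain whose dopamine neurons reach the striatum and cortex, and it was sampled as small tissue punches. These are 8 of the 26264 genes in the table, and all 8 passed the filter on low values that left 17755 genes to test. C57BlJ/6 mice received a virus in the VTA at postnatal day 14, carrying either Setd7, a lysine methyltransferase that can monomethylate lysine 4 of histone H3, or green fluorescent protein (GFP). The tissue was taken in adulthood, after social defeat stress or without it. The 4 groups are Setd7 virus with defeat (Setd7 defeat, 2 libraries, 1 female), Setd7 virus without defeat (Setd7 control, 4 libraries, 2 female), GFP virus with defeat (GFP defeat, 4 libraries, 2 female) and GFP virus without defeat (GFP control, 3 libraries, 1 female). Every group therefore had a virus injection, and the labels do not give the promoter or the cell types the virus reached, or the age of the adults. Nothing in the labels says that libraries came from separate animals. The p-values therefore measure only the spread between these libraries, which may in part be technical. For Setd7 defeat replicate 1, the data column carries more digits in its name than the title does, and whether that library holds 1 animal is not settled.

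Oligodendrocytes make the myelin sheaths of the central nervous system, and their precursors remain as dividing cells throughout the adult brain. Precursors carry the receptor for platelet-derived growth factor A (Pdgfra) and the proteoglycan NG2 (Cspg4) on their surface, and lose both as they commit to differentiation, when the receptor Gpr17 appears for a while. The transcription factors Olig1, Olig2 and Sox10 are present from precursors to mature cells, so their RNA in tissue comes from both, and Nkx2-2 acts around the start of differentiation. In bulk tissue, fewer cells of a type and less RNA per cell cannot be told apart.

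Each library had 26.5 to 50.8 M reads on genes (M, mega), recovered from the deposited values. Those values are counts scaled by size factors, with totals of 34.6 to 37.0 M. Setd7 RNA read 28587 to 158681 normalized counts in the 6 Setd7 libraries and 10888 to 14538 in the 7 GFP libraries. Th, the dopamine synthesis enzyme that marks VTA neurons, ran from 2508 to 19111. It read 2539 in GFP defeat replicate 1 and 3392 and 2508 in GFP control replicates 2 and 3, and at least 9759.5 elsewhere. Tcf7l2, a factor abundant in thalamus and also made by newly formed oligodendrocytes, read 6575 in GFP defeat replicate 4 and 9009 and 9559 in GFP control replicates 2 and 3, against at most 1869 in the others. Setd7 defeat replicate 1 had a summed level of meningeal fibroblast genes of 26276, against 4825 to 8521 in the other 12 libraries.

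Every lineage gene was read in every library, with at least 368 reads. Olig1 had the highest level per length of exon, with a median of 3053 normalized counts per kilobase, and its lowest library (2532) was above the highest of any other member. Sox10 followed with a median of 1505 per kilobase, then C1ql1 with 1062, Olig2 with 845 and Gpr17 with 587. The ranges of neighbours in that part of the order overlapped. Pdgfra had a median of 294 per kilobase with a range of 221 to 328, below the lowest Gpr17 library (456). Cspg4 (166) and Nkx2-2 (165) were lowest, and their ranges overlapped. Members varied little between libraries, the highest over the lowest library running from 1.30 for Cspg4 to 1.71 for C1ql1.

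The mean of GFP control was the lowest of the 4 group means for 8 of 8 members, which was so for 31.6% of all genes tested. Olig1 was the 1 member for which all 10 other libraries exceeded all 3 GFP control libraries, a pattern held by 1.1% of all genes tested. Differences below are on the log2 scale, as log2 of the normalized count plus 1, with standard errors from limma fitted over all 13 libraries with a term for sex. Unless another tool is named, p-values are two-sided from limma, adjusted by the Benjamini-Hochberg method over the 17755 genes.

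**Figure D1:**
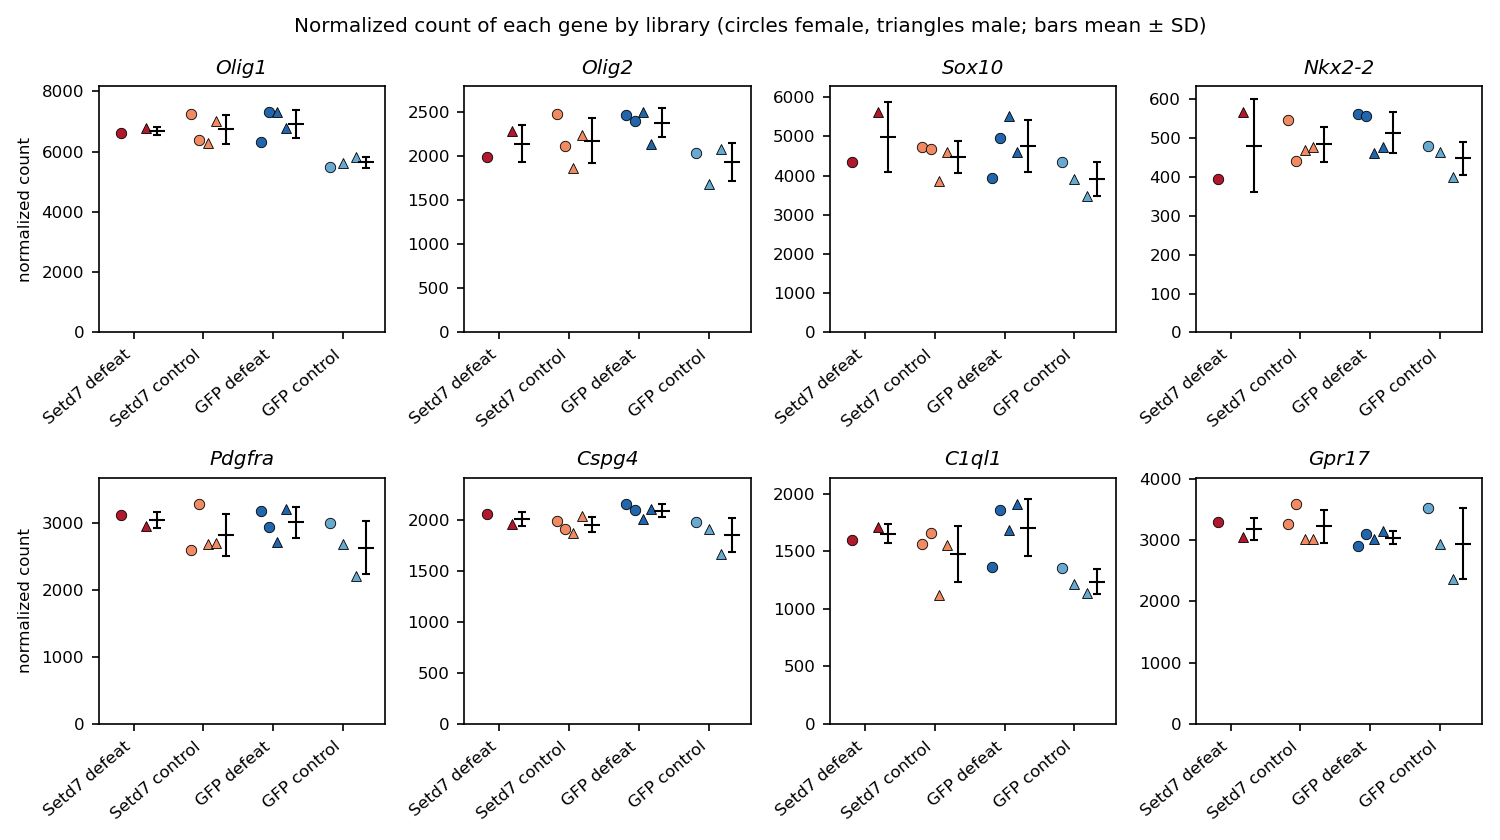
Normalized count of each of the 8 genes in each library (y axis, from 0), by group (x axis). Circles are female and triangles male libraries, and the black bars give the mean ± SD. For Olig1 the 3 GFP control libraries lie between 5474 and 5833, below the other 10.

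After defeat with GFP virus, all 8 lineage genes were higher than in GFP control, by 0.040 (Gpr17) to 0.44 (C1ql1), with a median of 0.24. Across all genes tested, 49.6% were higher and the median was -0.0020. At unadjusted p under 0.05, 5 of 8 were higher (Olig1, C1ql1, Olig2, Cspg4 and Sox10) and 0 lower, against 4.87% of all genes higher. None of the 8 had adjusted p under 0.05, and limma called 0 of 17755 genes (0%) in this comparison, with 1642 at unadjusted p under 0.05. On the recovered whole reads edgeR also called 0, while DESeq2 called 85 genes in either direction, Olig1 among them. Of the 14312 genes to which DESeq2 gave an adjusted p, 0.196% were called higher.

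Olig1, a basic helix-loop-helix factor that acts in maturation of the lineage and in remyelination, read 6321, 7295, 7298 and 6765 normalized counts in GFP defeat and 5474, 5619.8 and 5833 in GFP control. The groups did not overlap, which also held for Olig2, Cspg4 and C1ql1 (4 of 8 members) and for 4.26% of all genes in this direction. Olig1 was higher by 0.30 ± 0.072 (SE, limma adjusted p = 0.354), or 1.23-fold with a 95% interval of 1.10 to 1.37. Its adjusted p was 0.361 by edgeR and 0.0378 by DESeq2, the 1 member below 0.05 with any of the 3 tools. With 1 library left out at a time the limma difference stayed between 0.27 and 0.33, and the limma adjusted p between 0.317 and 0.632.

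Olig2, the factor that specifies the lineage, read 2472, 2403, 2496 and 2137 in GFP defeat and 2036, 1685 and 2077 in GFP control. The lowest GFP defeat library lay just above the highest GFP control library. The difference was 0.29 ± 0.10 (limma adjusted p = 0.451). Sox10, the HMG-box factor that drives myelin genes, had 3946, 4953, 5524 and 4603 normalized counts in GFP defeat and 4345, 3907 and 3469 in GFP control. GFP defeat replicate 1 lay within the control range. Sox10 was higher by 0.28 ± 0.13 (limma adjusted p = 0.528). Nkx2-2, the homeodomain factor tied to the onset of differentiation, read 562, 555, 460.4 and 477 in GFP defeat and 479.9, 463 and 399.6 in GFP control. Those groups overlapped, and the difference was 0.19 ± 0.14 (limma adjusted p = 0.705). Exons of Nkx2-2 share 278 bases (9.67%) with the opposite-strand transcript Nkx2-2os, which read 44.2 to 130 normalized counts. Whether counting used strand is not given in the sources used here, so reads in those bases cannot be told apart.

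Among the surface molecules, Pdgfra read 3184, 2942, 2718 and 3216 in GFP defeat and 2999, 2697 and 2213 in GFP control. The lowest value was that of GFP control replicate 3, and the other libraries overlapped. Pdgfra was higher by 0.18 ± 0.10 (limma adjusted p = 0.600). Cspg4 read 2153, 2089.7, 2001.5 and 2106 in GFP defeat and 1972, 1913 and 1662 in GFP control. Relative to its mean it had the narrowest spread of the 8 in GFP defeat, and it was higher by 0.17 ± 0.068 (limma adjusted p = 0.493). Pdgfra is also made by fibroblasts and Cspg4 by pericytes. Meningeal fibroblast genes were higher in 2 of 12 and pericyte and mural genes in 2 of 12 here, with medians of -0.20 and -0.10 and summed levels whose ranges overlapped between the groups.

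C1ql1 encodes a secreted protein of the C1q family that precursors make, and that some neurons make as a synaptic organizer. It read 1366, 1861, 1682 and 1912 in GFP defeat and 1354, 1220.05 and 1139 in GFP control. The lowest GFP defeat library was barely above the highest GFP control library, and the other 3 were well clear. C1ql1 had the largest difference of the 8, at 0.44 ± 0.14 (limma adjusted p = 0.423), or 1.36-fold with a 95% interval of 1.10 to 1.68. Gpr17, a G protein-coupled receptor of committed precursors that holds back their maturation, read 2908, 3092, 3010.5 and 3145.5 in GFP defeat and 3527, 2931 and 2366 in GFP control. The GFP control libraries spread on both sides of the GFP defeat libraries. Its difference was 0.040 ± 0.097 with a 95% interval of -0.17 to 0.25 (limma adjusted p = 0.939). Exons of Gpr17 share 188 bases (3.62%) with Lims2 on the opposite strand, which read 295 to 473. Olig1 exons share 157 bases (7.26%) with Gm15966. Those of Pdgfra share 456 (4.55%) with Gm42802 and 166 (1.66%) with Gm42803. These transcripts are also on the opposite strand, and no values were available for them.

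Libraries with little Th or much Tcf7l2 fall unevenly over these groups, 2 of the 3 GFP control libraries having both features. In this comparison 10 of 10 dopamine neuron genes were higher in GFP defeat, with a median of 0.81, and their summed level ran from 33293 to 140006 in GFP defeat and from 31710 to 86468 in GFP control. Thalamus genes were lower in 8 of 9, with a median of -0.48, and summed to 20412 to 36542 in GFP defeat and 21876 to 68264 in GFP control. Without the 3 libraries with low Th, 7 of the 8 lineage genes were higher with a median of 0.14. Leaving out instead the 3 libraries with high Tcf7l2 gave 7 of 8 and a median of 0.11. Each of these fits kept 1 GFP control library, replicate 1, which was assumed to vary like the other groups. That library is the only female of its group, so sex cannot be told apart there from low Th or high Tcf7l2. It has the lowest Olig1 of all 13, and the highest Sox10, Nkx2-2, Pdgfra, Cspg4, C1ql1 and Gpr17 of GFP control. Olig1 was higher by 0.39 without the low Th libraries and by 0.34 without the high Tcf7l2 libraries, while Gpr17 was lower by 0.12 and by 0.20. Without GFP control replicate 3 the median of the 8 was 0.16, with 3 at unadjusted p under 0.05. The count was also 3 without GFP control replicate 2, GFP defeat replicate 3 or GFP defeat replicate 4, and in a fit of the GFP groups alone. In these fits 1282 to 1818 of all 17755 genes were at that level, in either direction.

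**Figure D2:**
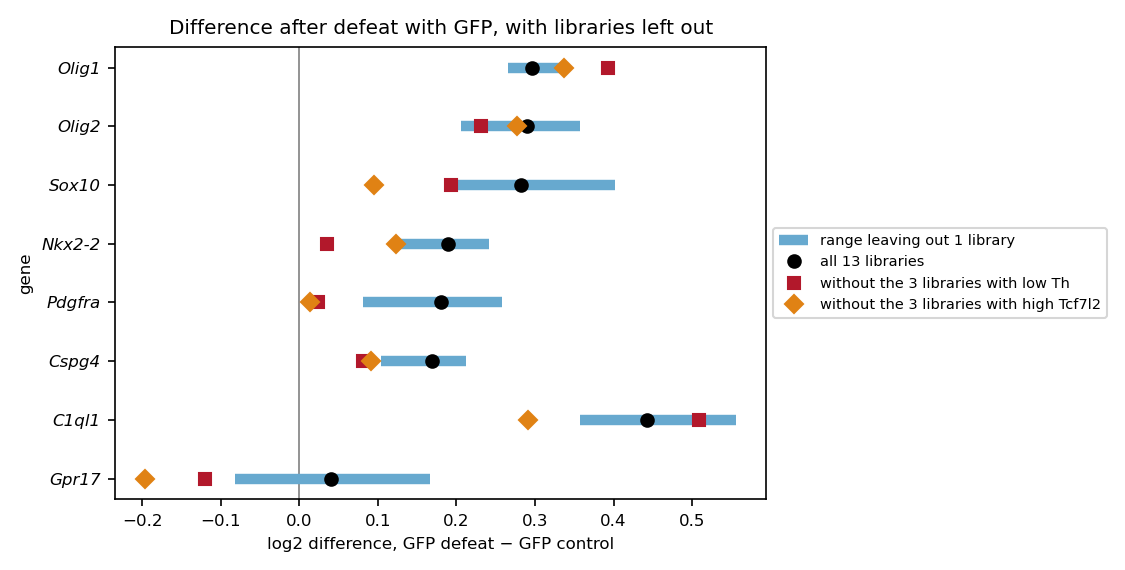
Log2 difference between GFP defeat and GFP control for each gene (x axis). Black points use all 13 libraries, blue bars span the fits that leave out 1 library, and squares and diamonds leave out the 3 libraries with low Th or with high Tcf7l2. Olig1, Olig2, Sox10, Nkx2-2, Pdgfra, Cspg4 and C1ql1 stay above 0 in all of these fits, and Gpr17 lies on both sides.

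Promoter sequence is shown for the pair whose levels were least alike among members with an entry, Olig2 and Pdgfra (Pearson r = 0.100 over 13 libraries). RefSeq promoters of build GRCm38.p6 were matched for 4 of 8 members, Olig2, Nkx2-2, Pdgfra and Cspg4, and the 250 bases before the start of the gene were read. They were searched on both strands for CANNTG (the E-box bound by Olig and other helix-loop-helix factors), ACAAAG (a core bound by Sox factors), TATAAA and CCAAT, and capitals mark the matches. Olig2 lies at chr16:91225300-91225549 on the plus strand and Pdgfra at chr5:75152001-75152250 on the plus strand.
Olig2: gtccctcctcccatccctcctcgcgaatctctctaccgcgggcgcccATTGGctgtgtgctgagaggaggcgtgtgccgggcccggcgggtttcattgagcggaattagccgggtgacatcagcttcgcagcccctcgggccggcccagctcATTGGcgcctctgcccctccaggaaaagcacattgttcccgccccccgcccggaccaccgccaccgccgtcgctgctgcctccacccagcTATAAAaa
Pdgfra: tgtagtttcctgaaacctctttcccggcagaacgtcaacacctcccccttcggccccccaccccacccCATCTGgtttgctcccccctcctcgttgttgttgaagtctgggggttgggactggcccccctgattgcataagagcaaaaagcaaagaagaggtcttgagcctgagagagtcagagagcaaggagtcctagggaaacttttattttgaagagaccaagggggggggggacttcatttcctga
The Olig2 window held 2 matches to CCAAT, both read on the minus strand, and 1 to TATAAA, while the Pdgfra window held 1 match to CANNTG, and no matches overlapped. Nkx2-2 had 3 matches to CANNTG, and Cspg4 had 0 matches to any of the 4 motifs. Among all 32851 promoters of this length, 66.2% held CANNTG, 16.5% ACAAAG, 12.4% TATAAA and 33.8% CCAAT. The G and C content was 66.8% for Olig2 and 54.4% for Pdgfra, against a median of 52.4% over all promoters.

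Setd7 virus without defeat was set against the same 3 GFP control libraries, so this comparison and the preceding one share their baseline. All 8 lineage genes were higher in Setd7 control than in GFP control, by 0.071 (Cspg4) to 0.26 (Olig1), with a median of 0.14, while 51.4% of all genes tested were higher. Mature oligodendrocyte genes were also higher in 18 of 20 (median 0.15), and other precursor genes in 8 of 19 (median -0.011). In these 2 lists 0 genes were at unadjusted p under 0.05. Olig1 alone was at unadjusted p under 0.05 (1 of 8, against 4.31% of all genes higher) and alone had groups that did not overlap (4.17% of all genes in this direction). By limma 0 of 8 members and 0 of 17755 genes (0%) had adjusted p under 0.05, with 1423 at unadjusted p under 0.05, and edgeR called 0 and DESeq2 35 genes, with 0 members among them.

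Cell type markers moved with the groups here too. Dopamine neuron genes were higher in 10 of 10 (median 0.98, 6 at unadjusted p under 0.05) and summed to 77943 to 149498 in Setd7 control and 31710 to 86468 in GFP control. Thalamus genes were lower in 9 of 9 (median -0.75), with sums of 18350.0 to 26362 in Setd7 control and 21876 to 68264 in GFP control. Microglia genes were higher in 10 of 10 (median 0.35, 0 at unadjusted p under 0.05), with sums of 10480.0 to 26203 (median 13522) in Setd7 control and 10684 to 13987 in GFP control. Cx3cr1 read 3212 in Setd7 control replicate 4, against 1382, 1883 and 1425 in replicates 1 to 3 and 1397 to 1986 in GFP control. The part of these cell type markers in the differences of the lineage genes was not tested beyond the fits without low Th or high Tcf7l2 libraries, given after the members.

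Olig1 read 7243, 6381, 6278 and 7023 in Setd7 control, against 5474, 5619.8 and 5833 in GFP control. The difference was 0.26 ± 0.072 (limma adjusted p = 0.539), or 1.19-fold with a 95% interval of 1.07 to 1.33. Olig2 read 2482, 2112, 1869 and 2242 in Setd7 control, with replicate 3 inside the GFP control range, and differed by 0.16 ± 0.10 (limma adjusted p = 0.727). Sox10 read 4727, 4673, 3861 and 4593 in Setd7 control, 3 of them above all GFP control libraries, and differed by 0.20 ± 0.13 (limma adjusted p = 0.723). C1ql1 had the same arrangement, with 1565, 1661, 1119.7 and 1554, and replicate 3 below the lowest GFP control library. Its difference was 0.23 ± 0.14 (limma adjusted p = 0.709).

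Nkx2-2 read 546, 441, 469 and 475 in Setd7 control, within the GFP control range except for replicate 1 (0.10 ± 0.14, limma adjusted p = 0.870). Pdgfra read 2602, 3292, 2693 and 2707, and only replicate 2 exceeded the highest GFP control library (0.082 ± 0.10, limma adjusted p = 0.855). Cspg4 read 1985, 1909, 1867 and 2038, which overlapped GFP control (0.071 ± 0.068, limma adjusted p = 0.815). Gpr17 had 3265, 3589, 3024 and 3019, inside the wide GFP control range except for replicate 2 (0.12 ± 0.097, limma adjusted p = 0.775). With the low Th libraries left out, 4 of 8 members were higher and the median was 0.0097, and with the high Tcf7l2 libraries left out 5 of 8 were higher with a median of 0.0016. The median of the 8 was 0.071 when replicate 3 of GFP control was left out, and 0.21 when its replicate 1 was.

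**Figure D3:**
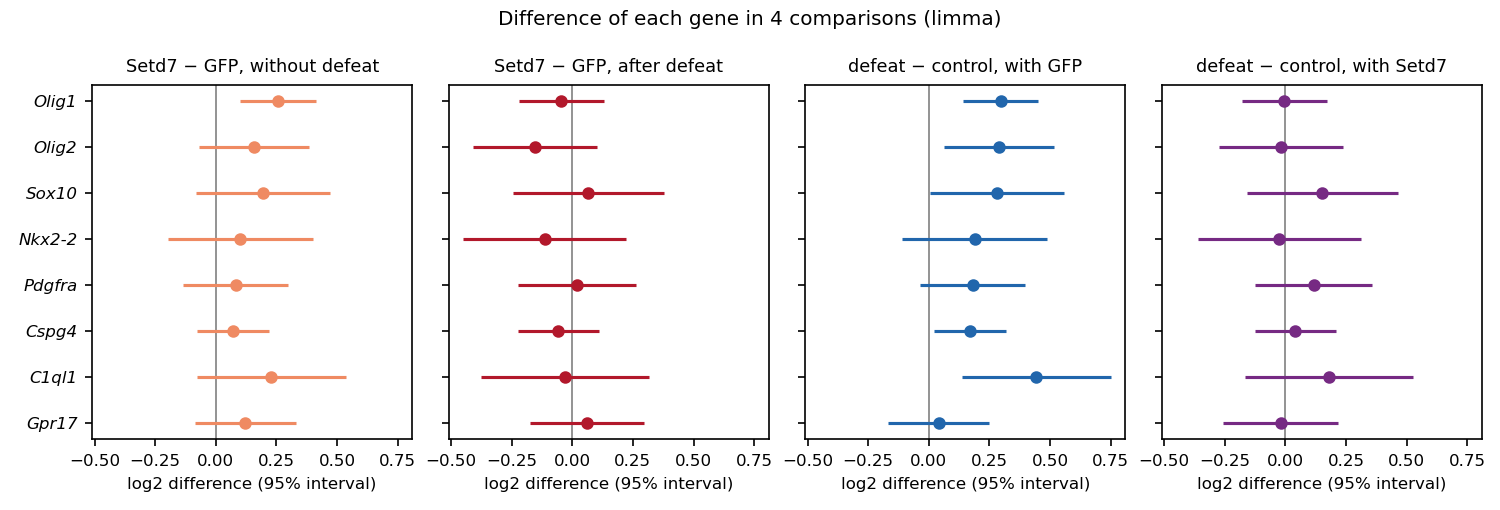
Log2 difference of each gene (points) with its 95% interval from limma (bars) in 4 comparisons. The Olig1 interval excludes 0 in both comparisons that use GFP control, and all 8 genes have intervals spanning 0 in the other 2 comparisons.

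Among defeated animals, the differences between viruses were small beside their errors. Of the 8, 3 were higher and 5 lower in Setd7 defeat than in GFP defeat (50.8% of all genes higher), from -0.15 (Olig2) to 0.067 (Sox10). Without Setd7 defeat replicate 1 it was 6 higher and 2 lower, and without Setd7 defeat replicate 2 it was 1 higher and 7 lower. With all libraries none was at unadjusted p under 0.05, against 4.85% of all genes, and 0 of 17755 (0%) had limma adjusted p under 0.05, while edgeR called 0 and DESeq2 6 genes. Olig1 read 6600.4 and 6788 in Setd7 defeat, within the GFP defeat range of 6321 to 7298 (-0.045 ± 0.081, 95% interval -0.22 to 0.13, limma adjusted p = 0.990). Olig2 read 1992 and 2288 in Setd7 defeat, with replicate 1 below all 4 GFP defeat libraries. The interval of its difference was -0.41 to 0.10. Sox10 read 4358 and 5609 in Setd7 defeat, and C1ql1 1599 and 1711. Both genes lay within or near the GFP defeat range, with intervals of -0.24 to 0.38 for Sox10 and -0.38 to 0.31 for C1ql1.

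Nkx2-2 had its lowest and its highest library of all 13 in the same group, with 395 and 565 in Setd7 defeat. Pdgfra read 3132 and 2963 in Setd7 defeat and Cspg4 2052 and 1959, all within the ranges of GFP defeat but for 1959, which was just below. Setd7 defeat replicate 1, the library rich in meningeal fibroblast genes, also had a pericyte and mural sum of 16674, against 8811 to 12311 in the others. Meningeal fibroblast genes were higher in Setd7 defeat than in GFP defeat in 12 of 12, with Dcn at 0.94 ± 0.26, and pericyte and mural genes in 12 of 12, with Rgs5 at 0.46 ± 0.13. Their part in the Pdgfra and Cspg4 levels was not tested. Gpr17 read 3299.7 and 3047 in Setd7 defeat, against 2908 to 3145.5 in GFP defeat (0.062 ± 0.11, limma adjusted p = 0.990).

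Defeat with Setd7 virus gave 4 of 8 members higher and 4 lower than in Setd7 control (48% of all genes higher). They ran from -0.026 (Nkx2-2) to 0.18 (C1ql1) with a median of 0.018, and 0 of 8 were at unadjusted p under 0.05, against 2.59% of all genes. By limma 0 of 17755 genes (0%) passed, while edgeR called 0 and DESeq2 7. Olig1 differed by -0.0055 ± 0.081 with a 95% interval of -0.18 to 0.17. Both Setd7 defeat values, 6600.4 and 6788, lay inside the Setd7 control range of 6278 to 7243. This split changed with each of the 2 Setd7 defeat libraries left out. Without replicate 1, the library rich in fibroblast genes, 8 of 8 were higher with a median of 0.14. Without replicate 2 it was 3 higher and 5 lower with a median of -0.029. Meningeal fibroblast genes were higher in 12 of 12 here, with a median of 1.08 and 8 at unadjusted p under 0.05, and pericyte and mural genes in 10 of 12 with a median of 0.28. Their part in these Pdgfra and Cspg4 differences was not tested. C1ql1 differed by 0.18 ± 0.16 with a 95% interval of -0.17 to 0.53, with Setd7 defeat replicate 2 above all Setd7 control libraries and replicate 1 in the upper part of their range. Sox10 differed by 0.15 ± 0.14 and Pdgfra by 0.12 ± 0.11, each with an interval that spans 0. Mature oligodendrocyte genes were higher in 19 of 20 (median 0.14) and other precursor genes in 10 of 19 (median 0.0036). In these 2 lists 0 genes were at unadjusted p under 0.05.

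The test of whether the defeat difference itself depended on the virus gave a negative interaction for 8 of 8 members, with a median of -0.17 (50.1% of all genes were above 0). Olig1 was the 1 member at unadjusted p under 0.05, at -0.30 ± 0.11 (limma adjusted p = 0.942), where 2.45% of all genes were below 0 at that level. Olig2 had a similar value with a wider error, -0.31 ± 0.16 (limma adjusted p = 0.942), and the others ran from -0.060 to -0.26. No gene of 17755 (0%) passed by limma, with 880 at unadjusted p under 0.05, and edgeR called 0 and DESeq2 1. Both Setd7 defeat libraries weigh on these values. Without replicate 1 it was 6 of 8 below 0 with a median of -0.086, and without replicate 2 it was 8 of 8 with a median of -0.32. Without Setd7 control replicate 3, 3 members were at unadjusted p under 0.05, with 837 of all 17755 genes at that level in either direction. The count was 2 without replicate 3 of GFP control (1056 of all genes) or replicate 4 of GFP defeat (874 of all genes). GFP control enters this contrast too. With the low Th libraries left out the median of the 8 was -0.051, and Pdgfra (0.092) and Gpr17 (0.10) were above 0. With the high Tcf7l2 libraries left out it was -0.080, and Sox10 (0.057), Pdgfra (0.10) and Gpr17 (0.18) were above 0. With all libraries, dopamine neuron genes had an interaction below 0 in 10 of 10 (median -0.88). Meningeal fibroblast genes had one above 0 in 12 of 12 (median 1.37). Their part in the values of the lineage genes was not tested. Among mature oligodendrocyte genes 12 of 20 had an interaction below 0, with a median of -0.036.

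Averaged over both viruses, 8 of 8 members were higher after defeat (50.3% of all genes), with 3 of 8 at unadjusted p under 0.05 against 2.34% of all genes higher. These were C1ql1 at 0.31 ± 0.11, Olig1 at 0.15 ± 0.054 and Sox10 at 0.22 ± 0.096, each with limma adjusted p = 0.922. Without Setd7 defeat replicate 2, 6 of 8 were higher with a median of 0.11, and without its replicate 1, 8 of 8 with a median of 0.19. The count at unadjusted p under 0.05 was 5 without GFP control replicate 1, with 1137 of all 17755 genes at that level in either direction. It was 2 to 4 without any other library outside Setd7 defeat, with 701 to 1097 of all genes. The median of the 8 was 0.14 with all libraries, 0.088 without the low Th libraries and 0.095 without the high Tcf7l2 libraries. Limma called 0 genes (0%), with 919 at unadjusted p under 0.05, edgeR 0 and DESeq2 8. Averaged over defeat, Setd7 against GFP gave 7 of 8 members higher (51% of all genes), by at most 0.13 (Sox10), and 0 of 8 at unadjusted p under 0.05, against 7.12% of all genes. It was 5 to 8 of 8 with any 1 library left out, 3 of 8 (median -0.013) without the low Th libraries and 5 of 8 (median 0.0081) without the high Tcf7l2 libraries. Setd7 itself was the 1 gene of 17755 called by limma (0.00563%), and Olig1 was higher by 0.11 ± 0.054 (limma adjusted p = 0.714).

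The wider lineage was described with lists that hold none of the 8. After defeat with GFP, 11 of 19 other precursor genes were higher with a median of 0.032, and 0 were at unadjusted p under 0.05 in either direction. The 3 with the smallest p were Matn4, a matrilin of the extracellular matrix (0.37 ± 0.17), Luzp2 (-0.19 ± 0.092) and the sialidase Neu4 (0.28 ± 0.14). Of 18 genes of committed and newly formed oligodendrocytes, 11 were higher with a median of 0.057, 2 higher and 2 lower at unadjusted p under 0.05. Nkx6-2, a homeodomain factor of the lineage, read 1431, 1385, 1474 and 1273 in GFP defeat and 912, 900.2 and 1155 in GFP control (0.50 ± 0.13, limma adjusted p = 0.365). Tcf7l2 was lower by 1.35 ± 0.47, and Cnksr3 by 0.54 ± 0.19, both with adjusted p above 0.4 by limma.

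Mature oligodendrocyte genes were higher in 19 of 20, with a median of 0.22 and 6 at unadjusted p under 0.05, all higher. Trf, the transferrin of oligodendrocytes, read 23921, 28852, 26654 and 23244 in GFP defeat and 22050.2, 16873 and 19916 in GFP control. Those groups did not overlap (0.37 ± 0.094, limma adjusted p = 0.362). Mag, an adhesion protein of the inner myelin membrane, was higher by 0.31 ± 0.12 and Cnp, an enzyme of non-compact myelin, by 0.23 ± 0.084. Mbp, which encodes myelin basic protein, had a difference of 0.24 ± 0.16, of similar size to that of Cnp with a wider error. With the low Th libraries left out, 16 of 20 were higher with a median of 0.13, and with the high Tcf7l2 libraries left out 11 of 20, with a median of 0.024. Mature genes summed to 467293 to 608730 in GFP defeat and 395771 to 503668 in GFP control, and these ranges overlapped.

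Of 32 signals and receptors of the lineage, 18 were higher in GFP defeat than in GFP control, with a median of 0.030. At unadjusted p under 0.05, 2 were higher and 0 lower. Ptch1, the receptor of Sonic hedgehog, read 14176, 12351, 11885 and 12701 in GFP defeat and 10758, 10594 and 10514 in GFP control, without overlap (0.27 ± 0.071, limma adjusted p = 0.365). Fgfr3, a fibroblast growth factor receptor that astrocytes also carry, was higher by 0.21 ± 0.093. Pdgfa, the ligand of Pdgfra, read 1359, 1408, 1488 and 1787 in GFP defeat and 1519, 1276 and 1300.1 in GFP control, and these overlapped. Astrocyte genes were higher in 5 of 12 with a median of -0.017. Mki67, a marker of dividing cells, was read at 3.91 to 55.1 normalized counts in 12 libraries and at 105 in Setd7 control replicate 4, which also had 8725 for the antigen presentation gene Cd74. That library was the highest of its group for Cspg4 and the lowest for Gpr17, and lay within the range of the others for the other 6 members.

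**Figure D4:**
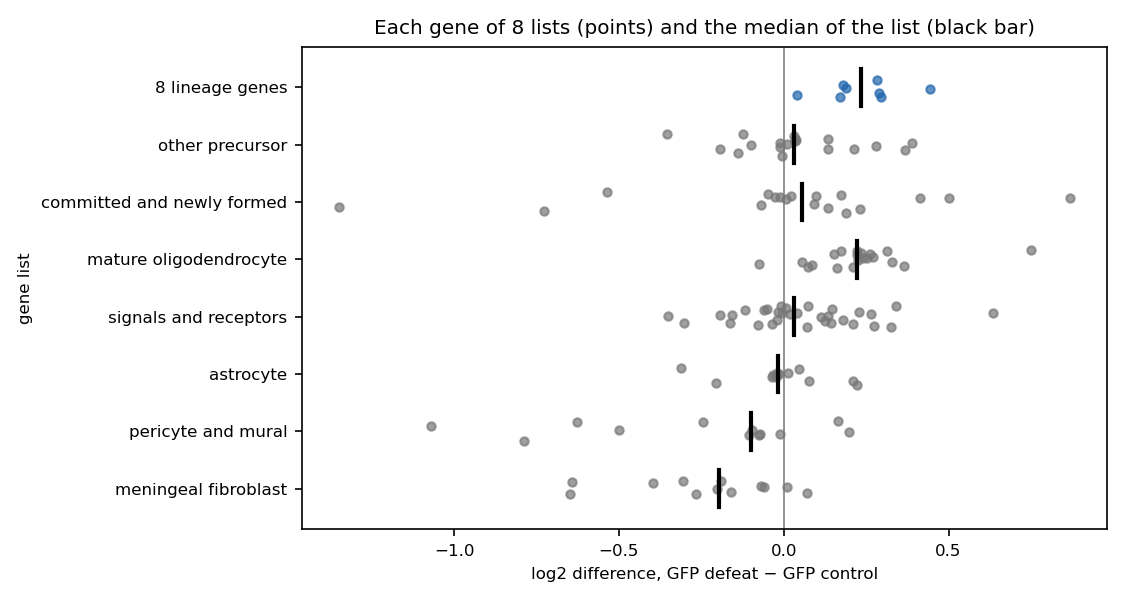
Log2 difference between GFP defeat and GFP control (x axis) for every gene of 8 lists (points), with the median of each list (black bar). The 8 lineage genes have a median of 0.24 and the mature oligodendrocyte genes 0.22, while the other precursor genes have 0.032.

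Among themselves, the 8 genes had a Pearson r above 0 across the 13 libraries in 28 of 28 pairs, with a median of 0.48. Not all of them kept that sign on other measures: rho was -0.099 for Olig2 with Gpr17 and 0 for Olig1 with Pdgfra and Nkx2-2 with Gpr17, and r was below 0 for 3 pairs without the 2 farthest libraries. After Benjamini-Hochberg adjustment over the 28 pairs, 7 passed by Pearson's r and 4 by Spearman's rho (two-sided permutation tests with 100000 resamples). Libraries were permuted across all groups, so differences between groups that the genes share are part of these results. Sox10 and C1ql1 were most alike (r = 0.823, permutation adjusted p = 0.0202, rho = 0.857, permutation adjusted p = 0.0129). They were still related at r = 0.792 without the 2 libraries farthest from the median of Sox10. Olig1 went with Olig2 (r = 0.724), Sox10 (0.706) and C1ql1 (0.729), each with a permutation adjusted p of 0.0384 for r and rho of 0.780, 0.824 and 0.725, and stayed at r of 0.626, 0.811 and 0.730 without the 2 farthest libraries. Pdgfra went with Gpr17 (r = 0.726, rho = 0.505) and with Cspg4 (r = 0.726, rho = 0.495). For these the permutation adjusted p was 0.0384 by r and 0.210 by rho, and r without the 2 farthest libraries was 0.551 and 0.420. Cspg4 and C1ql1 had r = 0.648 (permutation adjusted p = 0.0482) and rho = 0.555 (0.200), with r = 0.764 without the 2 farthest.

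Deviations from the group means leave out the differences between groups. Over these, 22 of 28 pairs were positive, the median r was 0.30 and 1 pair passed. The permutations did not allow for the subtracted group means, which tie the deviations of a group together, so that count is only a description. Pdgfra and Gpr17 were most alike there (0.81), followed by Sox10 and C1ql1 (0.72), while Olig1 and Pdgfra were opposite (-0.64). With the 2 farthest libraries left out 0 of 28 pairs passed (permutation tests with 10000 resamples). All values of a library were divided by the same size factor, so the values of 2 genes are not independent of the scaling.

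**Figure D5:**
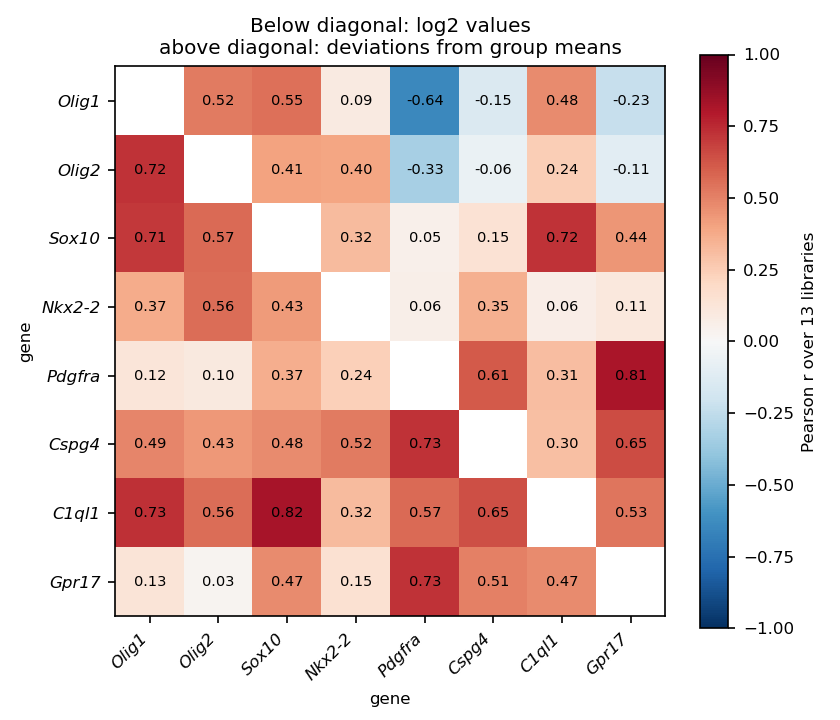
Pearson r over 13 libraries for each pair of the 8 genes, of log2 values below the diagonal and of deviations from the group means above it. Below the diagonal all values of r are above 0, and above it Olig1 with Pdgfra has the lowest, -0.64.

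The genes most like each member across the 13 libraries were sought among 13962 genes with a mean of at least 30 normalized counts, as a description with no test. For Olig1 these were Dpysl2 (r = 0.932), a regulator of microtubules, the neural factor Pou3f3 (0.924) and the kinase scaffold Mapk8ip1 (0.913). Olig2 was most like Tmem63a (0.906), Sez6l2 (0.903) and the phosphatase Phlpp1 (0.887), and Sox10 like Efhd1 (0.928), Slain1 (0.927) and Arhgef10 (0.927). Nkx2-2 was most like Afmid (0.905), the deubiquitinase Usp9x (0.895) and the receptor Igf2r (0.858). Pdgfra had Ywhaq (0.883), Gcnt2 (0.870) and Pde1a (0.861), and Cspg4 had Pnma2 (0.881), Selenoh (0.881) and Togaram2 (0.858). C1ql1 was most like the protease Adam10 (0.905), Nkain2 (0.894) and Ankib1 (0.879), and Gpr17 like Tmem29 (0.927), Max (0.900) and Fut8 (0.899). These 24 genes are in none of the lists of the lineage used here, and few genes of those lists were among the 20 most alike. Myrf, a factor that switches on myelin genes, came next for Sox10 (0.926), and Zfp488, a zinc finger factor of the lineage, was near the top for Gpr17 (0.898). Of the mature oligodendrocyte genes, Cnp (0.887) was among the 20 for Olig1, Cldn11 (0.855) for C1ql1 and Fa2h (0.825) for Olig2. Pdgfra, Cspg4 and Nkx2-2 had no gene of the lists among their 20.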

How the data were processed

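Per the labels, total RNA of VTA tissue was purified with RNeasy Micro kits and made into TruSeq RiboZero libraries. Per the submitters' processing notes, Bowtie2, GRCm39, featureCounts and DESeq2 were used, without versions. The values used here are signal, as the authors deposited it for 26264 genes and 13 libraries: featureCounts results scaled by size factors.

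Within a library the values are multiples of 1 step, and dividing by it gave 341432 values of which 100% were within 0.01 of a whole read. Genes with at least 10 normalized counts in 2 libraries were kept, 17755 of 26264. Log2 of the value plus 1 was fitted in R 4.3.3 with limma 3.58.1, with a mean-variance trend, 4 group means and sex. The fit was run on simulated counts with known changes, all larger than the differences of the members. That run does not show what the fit can detect at the size of those differences. Count tests on the recovered reads (edgeR 4.0.16, DESeq2 1.42.0) were alternatives. Other alternatives were a pseudocount of 5, no filter, a mean of 50 normalized counts, TMM scaling, no sex term, only the groups compared and each library left out. Leaving out the low Th or the high Tcf7l2 libraries was chosen after seeing the data.

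The members and lists were chosen with earlier results of these data known. Named outside the members were the 3 genes of a list with the smallest p, defining genes of cell types, and the 3 genes most like each member. Setd7, Cd74, Myrf, Zfp488, Cldn11, Fa2h and the overlapping transcripts were added after their values were seen. Exon lengths came from GENCODE M21 (GRCm38) by gene name. Replicate numbers were given in accession order and pair no libraries. Depth limits the precision little, as each member had at least 368 reads in each library. The result of 1 gene is not reported here.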

Additional observations from a re-analysis of the deposited data

Results flagged for a closer look

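Sox10 in Setd7 control replicate 3 read 3861 normalized counts, against 4593 to 4727 in the other 3 libraries of that group. Its gap to the nearest was 0.845 of the range of the group. Pdgfra in Setd7 control replicate 2 read 3292, against 2602 to 2707 in the other 3, with a gap of 0.848 of the range. Both exceed 0.829, the 95% critical value of Dixon's test for 4 libraries. Chance flags about 1 check in 20, and 16 were made, of each member in GFP defeat and in Setd7 control. These checks share their libraries, so they are not independent.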

How the results depend on the processing

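The counts of genes with adjusted p under 0.05 moved with the test. DESeq2 called 35 genes for Setd7 without defeat, 6 for Setd7 after defeat, 85 for defeat with GFP, 7 for defeat with Setd7, 1 for the interaction, 7 for Setd7 averaged and 8 for defeat averaged, where limma called 0, 0, 0, 0, 0, 1 and 0. With no filter on low values the count was 1 for defeat with Setd7 and 1 for Setd7 after defeat, and with only the groups compared it was 2 for Setd7 after defeat. Without the low Th or the high Tcf7l2 libraries Setd7 averaged had 0. Leaving out 1 library gave 0 to 4 calls for Setd7 without defeat, 0 to 23 for Setd7 after defeat, 0 to 18 for defeat with Setd7, 0 to 3 for the interaction, 1 to 3 for Setd7 averaged and 0 to 4 for defeat averaged. The highest of these came without Setd7 defeat replicate 2, except the 4 for Setd7 without defeat, which came without GFP control replicate 1.

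The settings were followed for 35 results of members: all 8 members for Setd7 without defeat, defeat with GFP and the interaction, 4 members each for Setd7 after defeat and defeat with Setd7, 3 for defeat averaged and 0 for Setd7 averaged. Of their 339 values under other settings, 319 kept direction and side of the threshold, 19 changed sign and 1 (Olig1, DESeq2) passed. For Setd7 without defeat, leaving out the low Th libraries gave Pdgfra -0.059, Cspg4 -0.0060, Nkx2-2 -0.0051 and Gpr17 -0.078, and leaving out the high Tcf7l2 libraries gave Sox10 -0.021, Pdgfra -0.031 and Gpr17 -0.079. For Setd7 after defeat Sox10 was -0.017 without the low Th libraries and C1ql1 0.042 without the high Tcf7l2 libraries. For defeat with GFP, Gpr17 was -0.12 and -0.20. For defeat with Setd7, Olig1 was 0.0028 with TMM scaling and 0.00011 with edgeR, and Nkx2-2 0.0037 with edgeR. For the interaction the values were Pdgfra 0.092 and Gpr17 0.10 without the low Th libraries, and Sox10 0.057, Pdgfra 0.10 and Gpr17 0.18 without the high Tcf7l2 libraries. The cause was not tested.

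Of the 455 values of these results with 1 library left out, 433 kept direction and side, and 22 changed sign. Those with a change of sign ran, for Setd7 without defeat, from -0.017 to 0.16 in Pdgfra. For Setd7 after defeat Olig2 ran from -0.31 to 0.0075, Sox10 from -0.14 to 0.27 and C1ql1 from -0.16 to 0.064, and for defeat with GFP Gpr17 ran from -0.082 to 0.17. For defeat with Setd7 Olig1 ran from -0.047 to 0.040, Olig2 from -0.18 to 0.14 and Nkx2-2 from -0.36 to 0.31. For the interaction Sox10 ran from -0.32 to 0.087, Pdgfra from -0.14 to 0.035, Nkx2-2 from -0.53 to 0.14 and Gpr17 from -0.19 to 0.062.

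Of the relations between members 7 passed, 1 over deviations from the group means (only a description) and 0 without the 2 farthest libraries. No paired analysis was possible because the replicate numbers were given in accession order and pair no libraries. Groups of 2 to 4 libraries limit what could be detected, and where Setd7 defeat or GFP control kept 1 library, that library was assumed to vary like the other groups.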
